A study of Mus musculus with 21 samples.

Results

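The comparison is between heart ventricles of AJ-F1 mice that lacked Taz (TAZ KO/Y, here KO) and ventricles of their littermates with the intact gene (TAZ WT/Y, here WT). It takes the 7 AJ-F1 libraries, 3 KO and 4 WT, of the 21 libraries in the series, chosen by the strain in their labels. All animals were 2 months old, and the Y in each genotype marks them as males. The other 14 libraries are from BL6J and CAST-F1 mice of the same age and genotypes. They entered here through the shared estimate of variation between replicates and through a test of whether the effect of the knockout differed between strains. The labels name the strain as AJ-F1 without its parents, and they do not describe the knockout allele. Neither litter nor animal is identified for a library, and the p-values here therefore cover library-to-library spread, which may be technical.

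Taz encodes tafazzin, a mitochondrial acyltransferase that remodels cardiolipin, the signature phospholipid of the inner mitochondrial membrane. Cardiolipin holds the respiratory complexes and the adenine nucleotide carrier in working order, and loss of human tafazzin causes Barth syndrome, with cardiomyopathy, skeletal muscle weakness and neutropenia. Muscle cells with failing mitochondria are known to switch on the integrated stress response, in which the transcription factor ATF4 raises genes for amino acid synthesis and uptake, tRNA charging and secreted hormones such as FGF21 and GDF15.

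Taz itself (chrX:74281912-74290151, + strand, GRCm38) was counted first, as a check of the labels. Its level was 48.5, 55.1, 54.4 and 61.0 CPM (reads scaled to a common library size with TMM factors) in the WT libraries. It was 2.22, 3.77 and 1.48 CPM in the KO libraries. The groups were far apart, with 1680 reads in WT and 43 in KO. The log2 fold change was -4.49 ± 0.25 (SE; edgeR quasi-likelihood test, adjusted p = 1.8e-11), which left 4.54% of the WT level. All 7 libraries therefore matched their genotype labels. Markers of cardiomyocytes, the contractile cells of the heart, summed to 111000 to 133800 CPM in WT and 82980 to 91550 CPM in KO, and all 12 were detected. Of the 12, 4 fell at an edgeR adjusted p under 0.05 (3 to 6 when each AJ-F1 library was left out), and 8 did not pass. Myoglobin (Mb), which lost more CPM than any other gene, is among the 4. In tissue RNA of this kind, fewer cells of a type and less RNA per cell cannot be told apart.

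Total counts ran from 5188327 to 10738130 per library. The 3 KO libraries resembled each other closely (r of log2 CPM 0.979 to 0.980), whereas WT 3 stood apart from the other controls (r = 0.918, 0.895 and 0.964 with WT 1, 2 and 4). The first principal component (58.4% of the variance) placed the KO libraries between 38.3 and 52.2 and the WT libraries between -82.1 (WT 3) and -0.04 (WT 2). WT 3 also carried more reads from short genes: its median log2 ratio to the control mean was 0.25 among the genes with the shortest exons and -0.30 among those with the longest, when genes were split by exon length into 3 equal groups. Among 9989 genes with at least 5 CPM, it gave the highest control value for 42.3% and the lowest for 38.6%. WT 2 gave the highest for 27.6% and the lowest for 36.3%. Its tilt with exon length ran the other way, at -0.22 among the shortest and 0.18 among the longest. The calls and the counts of called list members were therefore repeated without each library in turn. For many of the lists, though not all, a library is named below where its removal moved the count most.

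Of 12333 genes tested, 1588 (12.9%) rose and 1933 (15.7%) fell at an adjusted p under 0.05, 28.5% in all. The median log2 fold change of all tested genes was 0.01, and 29% of genes had no overlap between KO and WT libraries. Without WT 3, 1614 genes rose and 1735 fell, and 1321 and 1528 of the original calls were among them. The counts were smallest without KO 3, at 976 and 1159, and largest without WT 2, at 2179 and 2401. The authors' deposited table called 1461 genes higher and 1802 lower in AJ-F1, and 3122 of the 3521 calls made here were also in it in the same direction. The list counts in the following paragraphs are to be read against these shares. Unless a value without a library is given, each gene named below kept its call when each of the 7 libraries was left out.

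The largest rises were in genes close to silent in control heart. Ostn (chr16:27307489-27351212, + strand) encodes osteocrin, a muscle-derived peptide that binds the natriuretic peptide clearance receptor. It had no read in any WT library and 54.0, 46.9 and 56.6 CPM in the KO libraries. Measured against a floor of 3 reads over the control group, it was at least 536-fold higher (edgeR adjusted p = 4e-10). Adm2 (chr15:89322720-89324731, + strand), which encodes the vasodilator peptide adrenomedullin 2, likewise went from 0 reads to 44.6, 49.5 and 59.6 CPM, at least 528-fold. Fgf21 (chr7:45613886-45615490, - strand), the hormone of fasting and mitochondrial stress, had 1 WT read, in WT 3, and 728 KO reads. Its KO levels were 38.5, 34.8 and 45.0 CPM, and its ratio of 1220 had a 95% counting interval of 218 to 48100. The KO libraries were close to each other for all 3 of these secreted factors. None of them overlapped the controls.

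The other genes in this class encode receptors, enzymes, a cofactor and a transporter. Vmn2r3, a member of the vomeronasal receptor family, reached 51.2, 38.2 and 45.0 CPM from 0 reads, at least 454-fold. Its family is large, so the share of those reads that belongs to a relative is uncertain. The aldo-keto reductase gene Akr1b7 and the glycosyltransferase gene B4galnt2 were each at least 181-fold higher, and Fibcd1, for a chitin-binding receptor, at least 75.8-fold. Vgll2, a cofactor of TEAD transcription factors in muscle, had 1 WT read and 708 KO reads. Mthfd2, the mitochondrial folate enzyme, rose from between 0.40 and 0.72 CPM to 210.2, 188.1 and 200.4 CPM, with a log2 fold change of 8.34 ± 0.29 (edgeR adjusted p = 9.7e-15). The arginine and lysine transporter gene Slc7a3 had 1 WT read and 320 KO reads, which is 535 times higher (95% counting interval 95.3 to 21200).

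**Figure D1:**
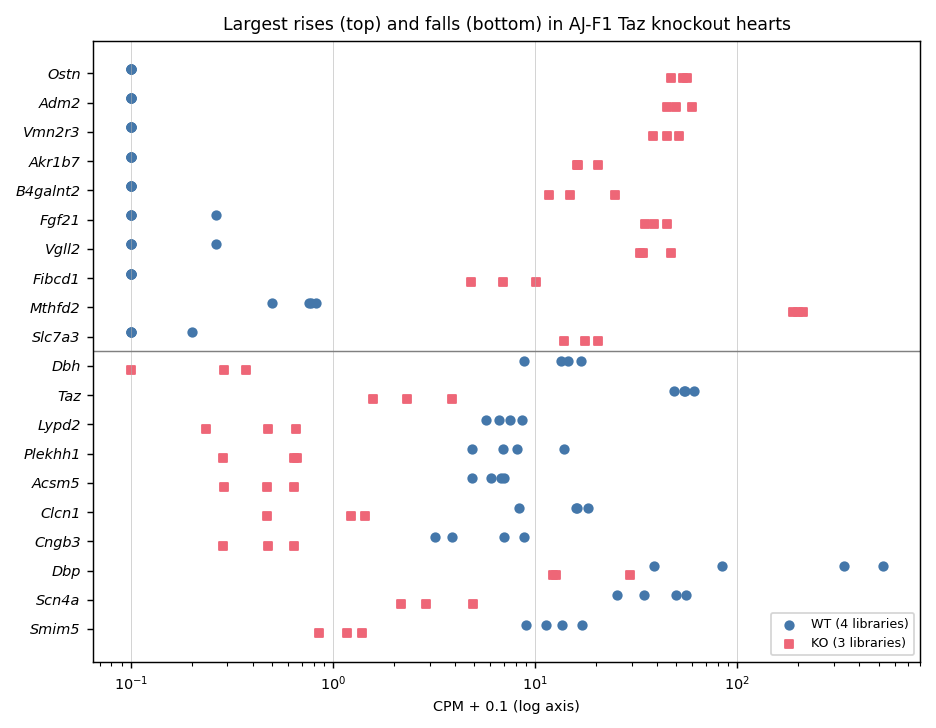
Level of the 10 genes with the largest rises (top) and the 10 with the largest falls (bottom) in each AJ-F1 library, as CPM plus 0.1 on a log axis, with WT as circles and KO as squares. No gene shown has overlapping groups, and Ostn, Adm2, Vmn2r3, Akr1b7, B4galnt2 and Fibcd1 sit at 0 CPM in all 4 WT libraries.

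Regulators of the integrated stress response rose in number. Of 20 tested, 10 rose and 1 fell, with a median log2 fold change of 0.51, and 9 or 10 rose when each library was left out. Atf4, the central transcription factor, was at 149.4, 95.3, 108 and 92.6 CPM in WT and 453.4, 500.5 and 506.1 CPM in KO, a log2 fold change of 2.13 ± 0.17 (edgeR adjusted p = 6.3e-09). Atf5, a related factor that responds to failed mitochondrial protein import, rose from between 38.5 and 84.3 CPM to 823.3, 948.4 and 855.9 CPM. That change of 3.99 ± 0.23 also made Atf5 one of the 8 genes that gained most CPM in the whole table. Trib3, a pseudokinase that feeds back on ATF4, changed by 5.08 ± 0.29, the glutathione-degrading enzyme gene Chac1 by 3.65 ± 0.36, the stress protein gene Nupr1 by 3.58 ± 0.28 and the leucine sensor gene Sesn2 by 2.75 ± 0.26. Dele1, whose product carries the mitochondrial stress signal to the cytosol in human cells, fell instead by 0.77 ± 0.20, or by 0.50 without WT 3.

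The promoters of these induced genes were searched for the core of the composite site that ATF4 and C/EBP proteins bind. The motif used was TGATGNAA or its reverse complement TTNCATCA within the 250 bases before the start, in RefSeq promoters of GRCm38.p6. It occurred in 1134 of 32851 promoters in the table (3.45%). The other shares count genes with a promoter there, and a gene was counted when any of its promoters matched. Among the 10 largest rises and the induced stress regulators, 3 of 17 genes had a match (17.6%). The share was 237 of 9681 for tested genes (2.45%), 44 of 1268 for genes called higher (3.47%) and 34 of 1456 for genes called lower (2.34%). The 17 were picked because they rose, so the shares are a description, and a match is not evidence of binding. The 3 promoters are shown because they held the match. They belong to a hormone, an enzyme and a regulator of this response. The match is in capitals, and each sequence is 5′ to 3′ on the strand of its gene.
Fgf21 promoter, chr7:45615491-45615740, - strand: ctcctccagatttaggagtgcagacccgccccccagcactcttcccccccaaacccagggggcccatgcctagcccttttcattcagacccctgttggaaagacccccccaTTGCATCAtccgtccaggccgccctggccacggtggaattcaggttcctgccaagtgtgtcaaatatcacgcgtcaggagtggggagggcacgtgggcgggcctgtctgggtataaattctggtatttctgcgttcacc
Chac1 promoter, chr2:119350992-119351241, + strand: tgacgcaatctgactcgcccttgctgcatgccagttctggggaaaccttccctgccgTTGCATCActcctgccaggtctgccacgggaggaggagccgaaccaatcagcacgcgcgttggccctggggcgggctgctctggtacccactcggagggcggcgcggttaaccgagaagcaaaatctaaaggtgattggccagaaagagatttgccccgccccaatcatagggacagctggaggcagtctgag
Nupr1 promoter, chr7:126625471-126625720, - strand: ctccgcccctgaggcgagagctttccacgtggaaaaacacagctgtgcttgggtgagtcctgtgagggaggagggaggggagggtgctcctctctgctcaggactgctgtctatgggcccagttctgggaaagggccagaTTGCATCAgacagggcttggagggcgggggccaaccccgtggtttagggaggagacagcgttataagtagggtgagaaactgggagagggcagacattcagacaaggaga

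The match began 139 bases before the Fgf21 start, 193 before the Chac1 start and 110 before the Nupr1 start. In all 3 the matched letters were the reverse complement TTGCATCA.

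Of 13 secreted stress signals tested, 7 rose and none fell. Gdf15 encodes a hormone that acts on the hindbrain to curb appetite. It was at 6.25, 5.49, 3.44 and 3.41 CPM in WT and 153.5, 208.6 and 336.6 CPM in KO, a log2 fold change of 5.65 ± 0.57 (edgeR adjusted p = 3.6e-07). The groups did not overlap, but the KO libraries spread over more than they did for Fgf21. Angptl6, an angiopoietin-like protein, changed by 2.84 ± 0.25, and Inhba, the subunit of activin A, by 3.69 ± 0.55. The remaining call, the endoplasmic reticulum factor Manf, was small (0.37 ± 0.13) and was lost in 6 of the 7 leave-outs.

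Enzymes that build serine and feed the folate cycle formed one of the strongest groups. Of 16 tested, 11 rose (9 to 11 across leave-outs) and 1 fell, with a median log2 fold change of 1.27. Phgdh, the first enzyme of serine synthesis, was at 0.54, 1.16, 1.97 and 0.20 CPM in WT and 156.2, 111.8 and 122.6 CPM in KO, a log2 fold change of 7.18 ± 0.33 (edgeR adjusted p = 6.5e-13). The next enzyme gene, Psat1, rose from about the same low level (1.80 to 2.31 CPM) to 96.7, 69.5 and 85.4 CPM. Both mitochondrial folate enzyme genes downstream of Mthfd2 rose as well, Aldh1l2 by 3.53 ± 0.32 and Mthfd1l by 3.36 ± 0.38. Aldh1l1, the cytosolic counterpart of Aldh1l2, was called lower at -1.64 ± 0.58. That call was lost without WT 3 (-1.37, adjusted p = 0.079), WT 4, KO 2 or KO 3.

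Among 17 enzymes of asparagine, proline and glutamate metabolism, 7 rose and 4 fell. Asns (chr6:7675169-7693254, - strand), for asparagine synthetase, was at 3.40, 2.02, 5.08 and 2.31 CPM in WT and 274, 262.5 and 286.1 CPM in KO. Its log2 fold change was 6.45 ± 0.25 (edgeR adjusted p = 3.3e-14), a ratio of means of 85.6. The proline synthesis genes Pycr1 and Aldh18a1 changed by 5.47 ± 0.25 and 3.85 ± 0.20. Of the falls, alanine aminotransferase gene Gpt held in every leave-out (-1.43 ± 0.17), while its mitochondrial relative Gpt2 rose by 0.67 ± 0.16. Oat, Prodh and Got2, which turn ornithine, proline and aspartate into glutamate or back, fell by 0.46, 0.73 and 0.45. Without KO 2, Oat, Prodh and Got2 had edgeR adjusted p of 0.072, 0.089 and 0.052, so that 1 of the 4 falls was called. Prodh was also lost without WT 4 or KO 3, and Got2 without WT 3 (-0.31, adjusted p = 0.061), KO 1 or KO 3.

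Amino acid transporters moved both ways. Of 19 tested, 10 rose, the same number in each leave-out, and 4 fell. Slc7a5 and Slc3a2, the chains of the large neutral amino acid exchanger, changed by 4.74 ± 0.22 and 1.80 ± 0.18. Slc7a5 went from between 3.03 and 7.38 CPM to 116.9, 107.9 and 145.9 CPM. The cystine exchanger Slc7a11 changed by 4.42 ± 0.50 and the glycine transporter Slc6a9 by 3.55 ± 0.27. The proton-coupled glycine and proline transporter Slc36a2 fell from 47.0, 63.9, 62.5 and 60.3 CPM to 11.8, 13.9 and 12.5 CPM (-2.19 ± 0.21, edgeR adjusted p = 8.6e-08). The taurine transporter Slc6a6 fell by 1.12 ± 0.31. The other falls, Slc7a2 and Slc1a5, were lost without KO 1 (edgeR adjusted p = 0.082 and 0.097) or KO 2, which left 2 falls in the list. Slc7a2 was also lost without WT 4, and Slc1a5 without WT 3 (-0.48, adjusted p = 0.12) or KO 3.

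Cytosolic tRNA synthetases, which charge tRNAs with their amino acids, rose almost as a family. Of 20, 17 rose and none fell, with a median log2 fold change of 1.59 and 16 to 18 rising in the leave-outs. Gars, for glycine, was at 71.7, 74.1, 75.4 and 79.4 CPM in WT and 552.6, 485.4 and 540.3 CPM in KO (2.81 ± 0.15, edgeR adjusted p = 5.6e-12). The bifunctional glutamate and proline synthetase gene Eprs changed by 2.88 ± 0.23, Sars by 2.27 ± 0.17 and Iars by 2.24 ± 0.14. Their mitochondrial counterparts, a separate gene set, had 1 rise and 1 fall among 17, with a median of -0.09. The fall was Cars2 (-0.77 ± 0.17), and the rise, Rars2 at 0.73, was lost without WT 3 (0.52, adjusted p = 0.06), WT 4, KO 1 or KO 3.

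The translation machinery moved the same way in smaller steps. Of 29 initiation factors, 14 rose (11 to 17 across leave-outs) and none fell. Eif2s2, a subunit of the factor whose phosphorylation starts the integrated stress response, changed by 1.86 ± 0.23, Eif5 by 1.71 ± 0.25 and Eif3c by 1.64 ± 0.13. Of 59 cytosolic ribosomal protein genes, 37 rose and 1 fell, with a median of 0.57. Without WT 3, 47 rose, and without KO 1 only 17 did, at medians between 0.43 and 0.65 in all leave-outs. Many ribosomal protein genes have processed copies elsewhere in the genome, so single values are uncertain. Of 26 genes for ribosome assembly, 14 rose (9 without KO 3) and none fell. The largest change there was Myc, which drives ribosome production, from between 3.41 and 6.93 CPM to 74.5, 74.4 and 68.2 CPM (3.89 ± 0.35). The elongation factor gene Eef1a1 gained more CPM than any other gene. It was at 898.7, 740.3, 1392 and 996.5 CPM in WT and 7586, 7970 and 6645 CPM in KO (2.88 ± 0.17, edgeR adjusted p = 2.9e-11). Eef1a1 has many processed copies too. Its muscle-type relative Eef1a2 did not pass the test (-0.35 ± 0.18, adjusted p = 0.15), though it did without WT 2 (-0.52).

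**Figure D2:**
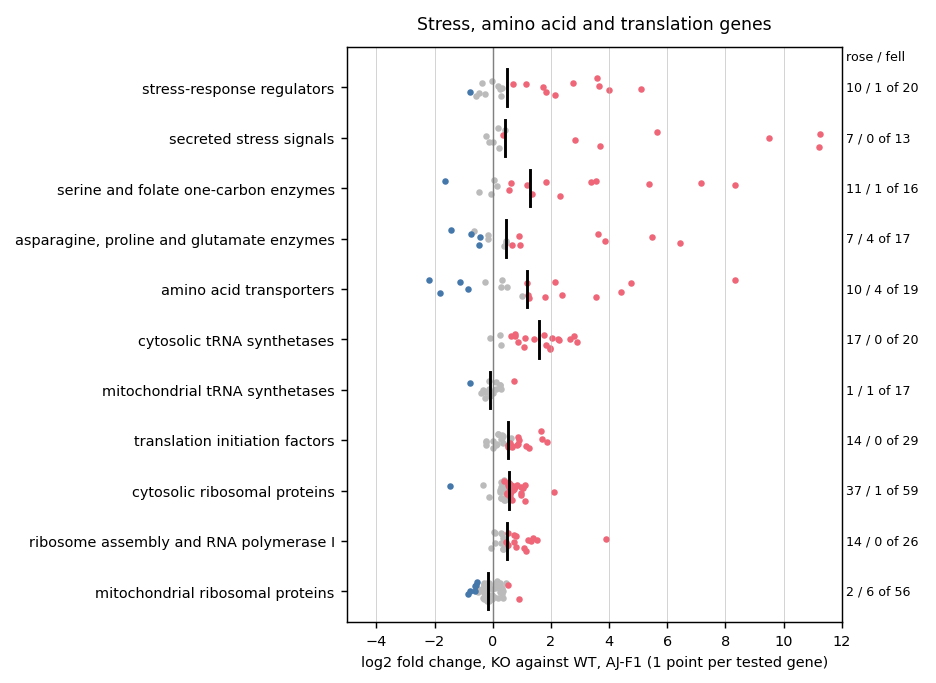
Log2 fold change of each tested member of 11 gene lists, with genes called higher in red, genes called lower in blue, the rest in grey and the list median as a black bar. The counts at the right are the genes that rose and fell of those tested. Cytosolic tRNA synthetases lie almost wholly to the right of 0 (17 of 20 rose), and mitochondrial tRNA synthetases and ribosomal proteins lie around it.

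Mitochondria showed a split between chaperones and the respiratory chain. Of 20 mitochondrial chaperones and proteases, 9 rose (8 to 12 across leave-outs) and 1 fell. Lonp1, the main matrix protease, was at 98.7, 119.7, 100.3 and 118.6 CPM in WT and 484.4, 426.1 and 534.8 CPM in KO (2.14 ± 0.14, edgeR adjusted p = 1.2e-10). The matrix chaperone Hspa9 changed by 1.61 ± 0.21. The chaperonin Hspd1 changed by 1.29 ± 0.26 and the inner membrane protease Afg3l2 by 0.96 ± 0.19. The lone fall, Spg7 (-0.39), was lost without WT 4, KO 1 or KO 2 (adjusted p = 0.18, 0.12 and 0.16). Import machinery gave 3 rises (1 without WT 4 or KO 1) and 4 falls in 30.

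Of 36 nuclear genes for complex I, which takes electrons from NADH, none rose and 24 fell, with a median log2 fold change of -0.53. The 24 became 18 without WT 3, 13 without WT 4 and 9 without KO 3, at medians between -0.64 and -0.43 in all leave-outs. Ndufa10 was at 525.8, 566.7, 926.7 and 794.6 CPM in WT and 455.2, 432.1 and 415.7 CPM in KO (-0.70 ± 0.16, edgeR adjusted p = 0.0032), and Ndufv3 fell by 0.88 ± 0.17. In complexes II and III, 7 of 14 fell and none rose (4 fell without WT 4 or KO 2, 3 without KO 3), led by Uqcr11 at -1.02 ± 0.18 and the Rieske protein gene Uqcrfs1 at -0.67 ± 0.12. Among 17 ATP synthase genes 8 fell and none rose (5 fell without KO 3), led by Atp5k at -1.12 ± 0.17. In 12 of 36 complex I genes the KO and WT libraries did not overlap, beside 29% of all tested genes. The summed level of complex I was 14630 to 21420 CPM in WT, highest in WT 3, and 11070 to 14070 CPM in KO. Median exon length was 1643 bases for complex I and 1108 for cytochrome oxidase, beside 4670 for genes with at least 5 CPM. Of the 3439 genes with the shortest exons, 465 rose and 721 fell, with a median log2 fold change of -0.07. Of the 3438 with the longest, 502 rose and 438 fell, with a median of 0.13. Without WT 3 these medians were -0.0 and 0.03, and that of complex I was -0.43. The part of exon length in the falls of these lists was not tested.

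Cytochrome oxidase, complex IV, had 10 falls and 2 rises in 17 genes (6 falls without WT 3 or WT 4, 5 without KO 3). The pairs of tissue-specific subunits are set apart here after their values were seen. Cox7a1 and Cox8b are the heart and muscle forms of their subunits, and Cox8a and Cox6a1 are general forms. Cox7a1 was at 1394, 1165, 1404 and 1404 CPM in WT and 673.2, 530.8 and 384.3 CPM in KO (-1.34 ± 0.19, edgeR adjusted p = 1.7e-05), and Cox8b fell by 1.44 ± 0.18. Cox8a was at 180.4, 145.5, 210 and 145.3 CPM in WT and 349.8, 348.1 and 259.2 CPM in KO (0.91 ± 0.14, edgeR adjusted p = 8.9e-05). Cox6a1 changed by 0.96 ± 0.24. Per kilobase of exon, the level of Cox8b was 3426 CPM in WT and 1267 in KO, and that of Cox8a 275.1 and 515.4, so the muscle form stayed the more abundant. The general form Cox7a2 (-0.04 ± 0.18) and the muscle form Cox6a2 (0.06 ± 0.22) were not called.

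Several other gene families had a called muscle member and a called general member that moved apart, again picked out after the values were seen. The ribosomal protein gene Rpl3l of heart and skeletal muscle was at 469.9, 351.3, 608.1 and 502.4 CPM in WT and 209.9, 193.2 and 115.9 CPM in KO (-1.48 ± 0.19, edgeR adjusted p = 7.9e-06). Its general form Rpl3 was at 93.7, 81.7, 106.7 and 82.2 CPM in WT and 466.5, 381.1 and 326.7 CPM in KO (2.10 ± 0.15, edgeR adjusted p = 1.5e-09). Per kilobase of exon, Rpl3l was at 293.9 CPM and Rpl3 at 28.7 in WT, and at 105.3 and 123.3 in KO. The order of the pair by level was thus reversed. The heart form of the adenine nucleotide carrier, Slc25a4, fell by 0.70 ± 0.12 while Slc25a5 rose by 0.96 ± 0.14. The muscle phosphoglycerate mutase Pgam2 fell by 0.93 ± 0.25 while Pgam1 rose by 1.24 ± 0.22. Muscle phosphofructokinase Pfkm fell by 0.53 ± 0.12 while Pfkp, its platelet form, rose by 1.66 ± 0.16. Pgam1 and Slc25a5 also have processed copies. The pattern was not general. Eno3, the muscle enolase, fell by 1.45 ± 0.20 while Eno1 was called only without WT 3 (0.71, adjusted p = 0.0027). Hk1 rose by 1.31 ± 0.14 while the muscle form Hk2 was at -0.11 ± 0.23.

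Fuel use genes fell in part. Of 36 genes for fatty acid uptake and oxidation, 16 fell (10 without KO 2) and 1 rose, with a median of -0.31. Hadh, for a short-chain enzyme of the cycle, was at 704.7, 736.4, 887.5 and 808.1 CPM in WT and 423.8, 437.6 and 356.8 CPM in KO (-0.95 ± 0.12, edgeR adjusted p = 8.3e-06). The thiolase Acaa2 fell by 1.05 ± 0.14, the short-chain dehydrogenase Acads by 1.14 ± 0.16 and the carnitine enzyme Cpt2 by 0.82 ± 0.14. Large members were not called, among them the rate-limiting Cpt1b (0.05 ± 0.11), the transporter Cd36 (-0.08 ± 0.25) and Hadha (-0.07 ± 0.12). The exception that rose was Acot2, a mitochondrial thioesterase, from between 59.3 and 114.6 CPM to 263.5, 449.3 and 442.4 CPM (2.17 ± 0.22), while its neighbour in function Acot1 fell by 1.88 ± 0.35. The Acot genes are near-identical in sequence, so reads may be shared among them. Breakdown of branched-chain amino acids had 10 falls in 21 (6 without KO 2), led by Ivd at -1.17 ± 0.14.

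Sugar and pyruvate genes were mixed. In glucose uptake and glycolysis 6 rose (8 without WT 3, 4 without WT 1, KO 1 or KO 3) and 6 fell of 23. The insulin-responsive transporter Slc2a4 fell by 0.74 ± 0.12. Of 16 genes for pyruvate entry, 6 fell (3 without KO 3) and 2 rose (1 without WT 3, WT 4 or any 1 KO library). Both lactate dehydrogenase chains fell, Ldha by 0.89 ± 0.14 and Ldhb by 0.46 ± 0.14, the latter lost without WT 4, KO 2 or KO 3. The pyruvate dehydrogenase kinase Pdk4, which diverts pyruvate from oxidation, rose by 2.01 ± 0.49 with a wide spread, at 359.4, 372.2, 102.3 and 206.1 CPM in WT and 392.7, 1301 and 1448 CPM in KO. KO 1 lay just above the highest control. Of 21 genes in the tricarboxylic acid cycle list, 5 fell (3 without KO 2), among them Idh2, Me3 and Idh3b, and 2 rose (3 without WT 2). The rises were Me2 and Pck2. Pck2, the mitochondrial enzyme that turns oxaloacetate into phosphoenolpyruvate, changed by 2.06 ± 0.22. Of 38 mitochondrial solute carriers, 13 fell (9 without KO 3) and 4 rose. The largest of these changes that held in every leave-out were Slc25a34 at -1.45 ± 0.20 and Slc25a39, which imports glutathione, at 1.28 ± 0.22.

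Regulators of mitochondrial content were mostly not called. Of 20, 1 rose (4 without WT 2, 2 without WT 1, 0 without KO 3) and 4 fell. The coactivator gene Ppargc1a was at 110.5, 411.5, 47.9 and 67.9 CPM in WT and 137, 414.6 and 421.2 CPM in KO, so the groups overlapped (1.02 ± 0.56, edgeR adjusted p = 0.18). It was called without WT 2 (2.10, adjusted p = 0.0015). The retinoid receptors Rxra and Rxrg fell by 0.97 ± 0.18 and 0.84 ± 0.17, and the muscle cofactor Perm1 by 0.52 ± 0.13. Tfam (-0.09 ± 0.23), Ppara (0.02 ± 0.21) and Esrra (0.09 ± 0.13) were not called. In cardiolipin synthesis and remodelling, of 17 genes only Taz fell, and Cds2, which makes the CDP-diacylglycerol precursor, rose by 0.58 ± 0.13. The other rise, Pnpla8, a mitochondrial phospholipase, was 0.81 ± 0.26 and 0.52 without WT 3, and it was lost without WT 4, KO 1, KO 2 or KO 3 (adjusted p = 0.08, 0.082, 0.05 and 0.072).

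**Figure D3:**
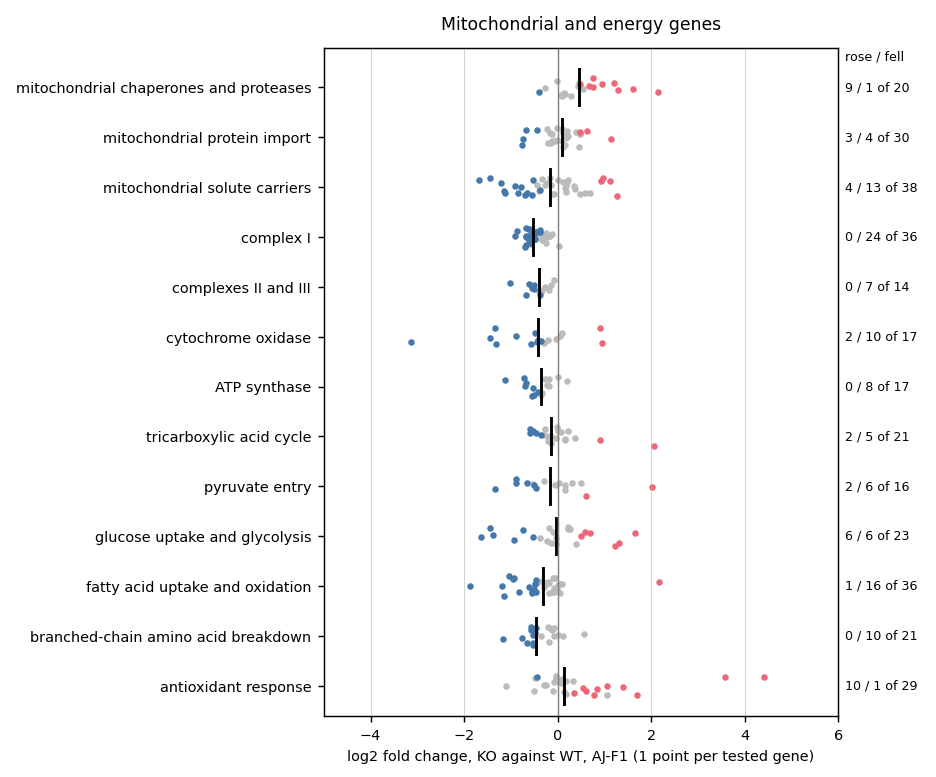
Log2 fold change of each tested member of 13 mitochondrial and energy lists, with genes called higher in red, lower in blue, the rest in grey and the median as a black bar. Complex I has 24 falls and no rise in 36 genes, and mitochondrial chaperones and proteases 9 rises and 1 fall in 20.

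Antioxidant genes had 10 rises (8 without KO 3) and 1 fall (4 without WT 2) in 29. Hmox1, for heme oxygenase, was at 9.38, 7.65, 20.99 and 10.1 CPM in WT and 34.4, 34.5 and 46.4 CPM in KO (1.69 ± 0.32, edgeR adjusted p = 0.00059). Srxn1, which repairs peroxiredoxins, changed by 1.39 ± 0.20, catalase (Cat) by 0.78 ± 0.12 and thioredoxin reductase (Txnrd1) by 1.06 ± 0.19. Gsta1 changed by 3.58 ± 0.53 but has a near-identical copy. The fall, Gstm1 (-0.45), was lost without WT 3 (-0.23, adjusted p = 0.17), KO 1 or KO 3. In NAD synthesis, Nmrk2, the muscle nicotinamide riboside kinase, was at 8.57, 5.49, 5.58 and 5.81 CPM in WT and 87.5, 76.1 and 116.5 CPM in KO (3.87 ± 0.33, edgeR adjusted p = 1.2e-08). Naprt, which uses nicotinic acid, fell by 1.64 ± 0.33 and the NAD-consuming ectoenzyme gene Cd38 by 1.44 ± 0.28.

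Protein turnover genes changed in a few members. Cathepsin L (Ctsl) was at 105, 121.4, 81.8 and 109.9 CPM in WT and 451.5, 409 and 480.3 CPM in KO (2.10 ± 0.19), and the autophagy receptor Sqstm1 changed by 0.87 ± 0.20. Of 38 proteasome genes, 7 rose (2 without KO 1, 4 without KO 2 or KO 3) and 4 fell. All 4 falls were in genes of the interferon-inducible proteasome or its activator, namely Psmb8 (-1.25 ± 0.27), Psme1 (-1.25 ± 0.20), Psmb9 (-1.34 ± 0.35) and Psme2 (-0.57 ± 0.17), picked out after their values were seen. Without KO 3, Psmb9 and Psme2 were not called (adjusted p = 0.059 and 0.11). Psmb10, the further inducible subunit, was not called (0.45 ± 0.18, edgeR adjusted p = 0.065) except as higher without WT 3 (0.57, adjusted p = 0.014). Among 23 interferon-response genes, 2 rose and 4 fell. None rose without WT 3, WT 4, KO 2 or KO 3, and 2 fell without WT 3, 1 without KO 1 or KO 3 and 6 without WT 2. Endoplasmic reticulum chaperones gave 4 rises (2 without KO 3) and 1 fall in 20, the fall being lost in every leave-out but those of WT 1 and WT 2.

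Several of the most abundant contractile genes fell. Of 39 sarcomere genes, 14 fell (12 to 17 across leave-outs) and 2 rose, with a median of -0.33. The oxygen store myoglobin (Mb) lost more CPM than any other gene, from 19390, 18510, 28930 and 33250 CPM in WT to 10450, 11250 and 11780 CPM in KO (-1.17 ± 0.18, edgeR adjusted p = 4.5e-05). Tropomyosin 1 (Tpm1), the essential light chain Myl3 and troponin I (Tnni3) fell by 0.82 ± 0.15, 0.80 ± 0.16 and 0.64 ± 0.15. Tcap, which anchors titin, was at 1034, 1187, 2905 and 2571 CPM in WT and 531.8, 665.4 and 527.4 CPM in KO (-1.74 ± 0.32). The skeletal muscle forms Mybpc2 and Tnnt1 fell by 2.98 ± 0.35 and 2.14 ± 0.29, and the Z-disc protein gene Myot by 2.26 ± 0.30. Creatine kinase M (Ckm) fell by 0.58 ± 0.18, but not without WT 3 (-0.39, adjusted p = 0.052), KO 2 or KO 3.

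The hypertrophy and load genes did not move as a block. Of 20, 4 rose (8 without WT 2) and 4 fell. Atrial natriuretic factor (Nppa), a load-induced hormone, was at 110.3, 333, 83.1 and 84.4 CPM in WT and 313.6, 104.9 and 340.8 CPM in KO, so the groups overlapped (0.73 ± 0.50, edgeR adjusted p = 0.29). Without WT 2 it was called (1.45, edgeR adjusted p = 0.025). Markers of atrial cardiomyocytes were high in the same libraries. Without Nppa itself, 7 of them summed to 68.7, 205.7, 43.1 and 21.4 CPM in WT and 208.9, 78.7 and 228.5 CPM in KO. Of the 8 atrial markers 1 rose (3 without WT 2), Upk3b, which is also a mesothelium marker. Their part in the Nppa values was not tested. The related hormone gene Nppb was at 754.9, 617.5, 503.7 and 630.6 CPM in WT and 343.5, 288.6 and 619.4 CPM in KO (-0.59 ± 0.48, edgeR adjusted p = 0.37). The adult myosin Myh6 (-0.18 ± 0.17) and fetal Myh7 (0.56 ± 0.68) were not called. The rises were Ankrd1, a stretch-responsive nuclear protein, at 1.69 ± 0.33, Fhl1, which binds titin, at 2.22 ± 0.19, the filamin Flnc at 1.39 ± 0.24 and the ubiquitin hydrolase Uchl1 at 2.94 ± 0.22. Ankrd1 went from 857.4, 1406, 667.3 and 1239 CPM to 3494, 2306 and 4294 CPM.

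Many genes of excitation and calcium handling fell. Of 25 calcium genes, 9 fell (13 without WT 3, 5 without KO 1) and 2 rose. The sarcoplasmic reticulum protein Hrc was at 937.9, 1047, 727.1 and 1164 CPM in WT and 425.6, 342.1 and 429.1 CPM in KO (-1.28 ± 0.14, edgeR adjusted p = 1e-06). The calcium store protein Casq1 of skeletal muscle fell by 2.22 ± 0.25. The calcium pump Atp2a2 was not called (-0.40 ± 0.17, adjusted p = 0.075) except without WT 3 (-0.56, adjusted p = 0.0052). The sodium-calcium exchanger Slc8a1 rose by 1.42 ± 0.25. Among calmodulin kinase genes, Camk2b and Camk2a fell by 2.92 ± 0.36 and 1.38 ± 0.20, while the main cardiac form Camk2d rose by 0.83 ± 0.23 and was lost without KO 3 (0.72, adjusted p = 0.057).

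Of 23 potassium and pacemaker channel genes, 11 fell (9 without WT 4) and 1 rose (0 without WT 4, KO 2 or KO 3), with a median of -0.74. The pacemaker channel Hcn4 was at 17.95, 16.0, 24.9 and 25.4 CPM in WT and 2.77, 2.26 and 2.82 CPM in KO (-2.99 ± 0.37, edgeR adjusted p = 4e-06). The inward rectifiers Kcnj12 and Kcnj3 fell by 1.68 ± 0.21 and 1.45 ± 0.36. Of 19 sodium, chloride and water channel and pump genes, 10 fell (7 without KO 1) and 2 rose. Scn4a and Clcn1, the sodium and chloride channels of skeletal muscle, fell by 3.63 ± 0.41 and 3.87 ± 0.50. Intercalated disc genes gave 2 rises (1 without KO 1 or KO 3) and 2 falls (4 without WT 2, 1 without KO 2) in 20.

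The largest fall among all genes that passed the naming rule was Dbh (chr2:27165233-27183200, + strand), for the enzyme that makes noradrenaline. It was at 13.3, 8.66, 16.7 and 14.4 CPM in WT and 0, 0.19 and 0.27 CPM in KO, that is 404 reads against 3. The level was 80.5 times lower (95% counting interval 27.4 to 392, edgeR adjusted p = 1.2e-07). Among 18 adrenergic and muscarinic genes, 5 fell (9 without WT 3) and 1 rose. The alpha receptors Adra1b and Adra1a fell by 1.61 ± 0.32 and 1.45 ± 0.30. The beta receptor Adrb1 fell by 1.11 ± 0.30, but not without KO 3 (-0.89, adjusted p = 0.072). Grk5, a kinase that desensitises these receptors, rose from between 23.8 and 37.7 CPM to 78.0, 72.3 and 91.7 CPM (1.47 ± 0.17). Of 5 tested markers of nerve and glia, a list that also holds Dbh, 3 fell (4 without WT 3, 2 without WT 1 or any 1 KO library). The summed level of the list was 34.0 to 56.6 CPM in WT and 14.8 to 17.7 CPM in KO. That sum includes Dbh, so its drop is in part the fall of Dbh given above. The part of the other nerve and glia markers in the fall of Dbh was not tested.

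Matrix genes fell in number. Of 35 collagen and matrix genes, 19 fell (13 without WT 3, 11 without KO 3) and none rose, with a median of -0.69 that stayed between -0.73 and -0.62 in the leave-outs. Sparc, a collagen-binding matrix protein, was at 558.7, 506.8, 1167 and 660.2 CPM in WT and 321.5, 369 and 271.4 CPM in KO (-1.17 ± 0.24, edgeR adjusted p = 0.0012). The basement membrane chain Col4a2 fell by 0.69 ± 0.17 and the protease inhibitor Timp2 by 1.09 ± 0.21. Col1a1 was at 116.4, 80.7, 235.3 and 104.8 CPM in WT and 59.5, 72.7 and 69.9 CPM in KO (-0.99 ± 0.34, edgeR adjusted p = 0.033). Without WT 3 it was not called (-0.59, adjusted p = 0.17), nor was Col3a1 (-0.65, adjusted p = 0.068), and both calls were also lost without KO 2 or KO 3, as was that of Col1a1 without KO 1. Of 21 genes of TGF-beta signalling, 8 fell (6 without WT 3, 3 without KO 3) and 2 rose, with the ligand gene Tgfb2 rising by 1.98 ± 0.35 and the latency protein gene Ltbp1 falling by 1.22 ± 0.23.

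These falls went along with the markers of the cells that make matrix. The lists are not separate, because the fibroblast list also holds the collagens Col1a1, Col1a2 and Col3a1. Of 12 fibroblast markers 11 fell (8 without WT 3, 6 without KO 2 or KO 3), and none was at 0 in the libraries. Their summed level was 1402 to 2618 CPM in WT, with WT 3 the highest, and 791 to 866.6 CPM in KO. Of 14 endothelial markers 12 fell (7 without WT 3, 5 without KO 3), and their sum was 2197 to 5045 CPM in WT, WT 3 again highest, and 1234 to 2059 CPM in KO. Pecam1, an endothelial junction protein, fell by 1.04 ± 0.24 and the fibroblast proteoglycan Dcn by 0.86 ± 0.21. The smooth muscle and pericyte list had 7 falls in 11 tested genes, among them Tagln (-2.26 ± 0.35) and Myh11 (-1.94 ± 0.29). It had 1 rise, Acta2 (1.53 ± 0.24). Its sums were 4664 to 7954 CPM in WT and 5996 to 6192 CPM in KO. These sums overlapped although the median log2 fold change of the list was -1.19, so they do not describe most members. The list includes Acta2 and also Des, which is in the sarcomere list too. No macrophage marker of 15 was called by edgeR (1 without WT 1, and 1 at an unadjusted p under 0.05), with sums of 163 to 540.7 CPM in WT and 300.3 to 341.4 CPM in KO. Of 9 mesothelium markers 5 rose (3 without KO 3), and their sum was 24.6 to 61.2 CPM in WT and 68.0 to 87.6 CPM in KO. Summed red cell and platelet markers ran from 34.8 to 1504 CPM in WT, with WT 3 highest, and 85.7 to 289.7 CPM in KO. The part of the marker levels in the change of any other gene was not tested.

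**Figure D4:**
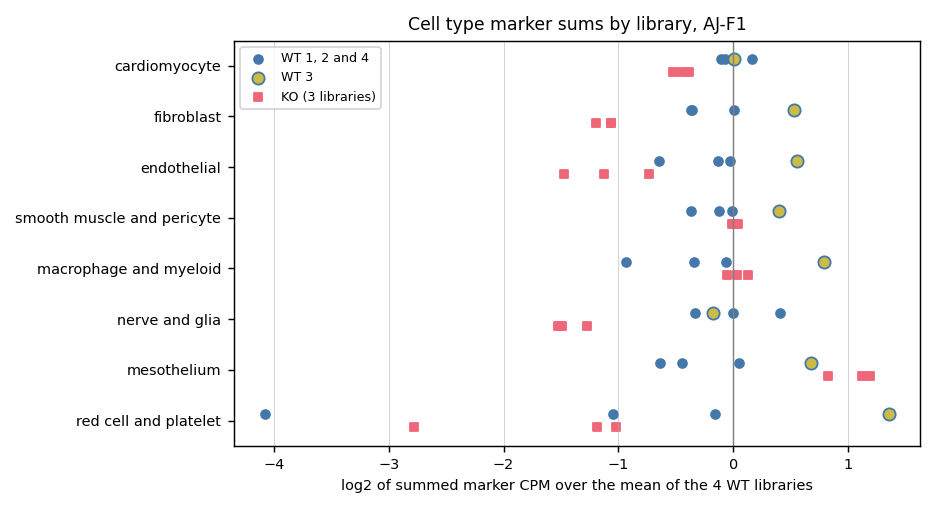
Summed CPM of each cell type marker list in each library, as the log2 of its ratio to the mean of the 4 WT libraries, with KO as red squares, WT 3 as a large yellow circle and the other WT libraries as blue circles. Fibroblast, endothelial, nerve (Dbh included) and cardiomyocyte sums lie lower in all 3 KO libraries than in any WT library. Macrophage sums overlap, as do smooth muscle and pericyte sums, where 7 of 11 tested members fell. WT 3 is the highest control for most of the cell types.

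Clock and immediate early genes fell in number. Of 19 clock genes, 9 fell and none rose, with a median of -1.06 (-1.21 to -0.79 across leave-outs). Without WT 1, 2 rose, and without WT 2, 1 did. Dbp, a clock output factor, was at 38.5, 84.2, 524.8 and 336.9 CPM in WT and 12.2, 29.4 and 12.6 CPM in KO (-3.78 ± 0.77, edgeR adjusted p = 0.0015). Hlf and Tef, of the same family, fell by 2.36 ± 0.29 and 1.52 ± 0.28. The labels give no hour of collection, and its part in these values was not tested. Of 23 immediate early genes, 10 fell (6 without WT 3, 2 without KO 1, 5 without KO 2) and 1, Myc, rose (2 without WT 1). Junb was at 576.6, 234.3, 343.5 and 212.4 CPM in WT and 103.2, 88.5 and 140.3 CPM in KO (-1.62 ± 0.40), and Btg2 fell by 1.89 ± 0.37.

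**Figure D5:**
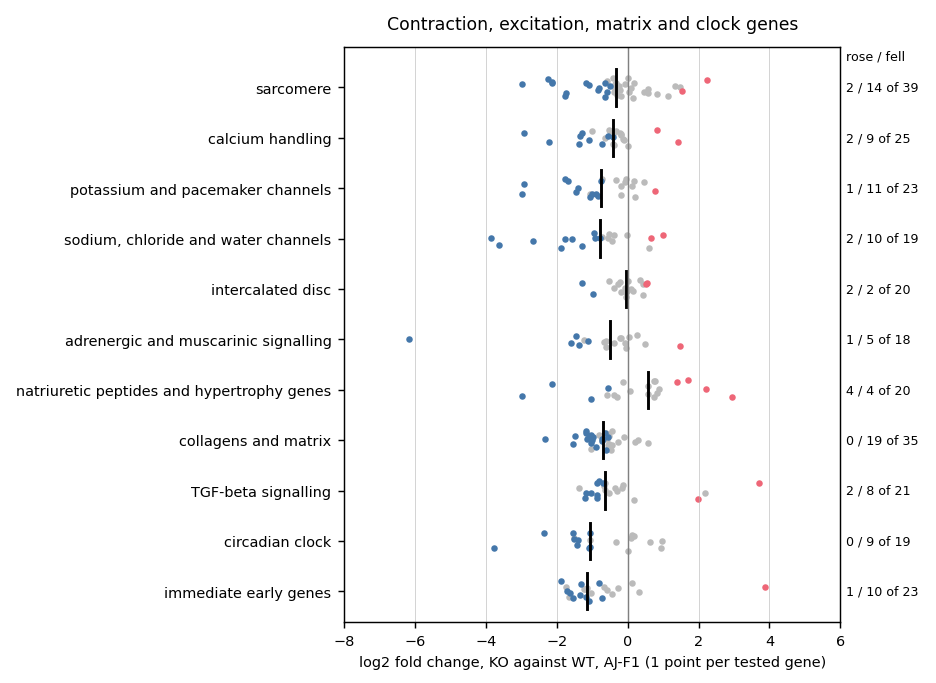
Log2 fold change of each tested member of 11 lists for contraction, excitation, matrix, clock and immediate early genes, with genes called higher in red, lower in blue, the rest in grey and the median as a black bar. Collagens and matrix has 19 falls and no rise in 35 genes, and natriuretic peptides and hypertrophy genes has 4 of each in 20.

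A few growth and lipid genes changed by large amounts. The cell cycle inhibitor Cdkn1a was at 79.3, 42.9, 40.7 and 22.2 CPM in WT and 226.9, 322 and 319.5 CPM in KO (2.65 ± 0.42, edgeR adjusted p = 8.7e-05). Cyclin D2 (Ccnd2) rose by 2.17 ± 0.16 and cyclin D1 (Ccnd1) fell by 1.21 ± 0.27. Soat2, which esterifies cholesterol in gut and liver, went from between 0 and 0.43 CPM to 31.8, 27.9 and 26.2 CPM (7.26 ± 0.36). The triglyceride enzyme gene Dgat2 and the phosphatidate phosphatase gene Lpin1 fell by 1.00 ± 0.17 and 0.92 ± 0.15. Cholesterol synthesis as a list had 2 rises (1 without any 1 KO library) and 4 falls (7 without WT 2, 2 without KO 3) in 21.

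The effect of the knockout was then compared with that in the other strains, whose libraries are all different ones. Of the genes that rose in AJ-F1, 959 also rose in BL6J (60.4% of the AJ-F1 list and 60.6% of the BL6J list) and 847 in CAST-F1 (53.3% and 64.4%). Of those that fell, 784 also fell in BL6J (40.6% and 66.8%) and 767 in CAST-F1 (39.7% and 64.8%). These overlaps, and the list counts by strain below, are to be read against the totals. Of all 12333 tested genes, 1583 rose and 1173 fell in BL6J, and 1315 rose and 1183 fell in CAST-F1. The difference of the effects was tested for each gene. It was called for 1 gene against BL6J (0.00811% of 12333) and 11 genes against CAST-F1 (0.0892%), of which 2 had the higher change in AJ-F1 (0.0162%) and 9 the lower (0.073%), while 1371 and 1219 genes had an unadjusted p under 0.05. By limma-voom with sample weights the calls were 7 and 140, and by the DESeq2 Wald test 72 and 84. Without WT 2 of AJ-F1, 57 genes were called against BL6J, and without WT 3, 7. Leaving out any 1 of the 3 AJ-F1 KO libraries left no gene called in either comparison.

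The gene called against BL6J was Hyal1, a hyaluronidase, with a log2 fold change of -0.39 ± 0.27 in AJ-F1 and 1.90 ± 0.25 in BL6J. It was at 8.02, 8.66, 14.1 and 8.22 CPM in AJ-F1 WT and 7.58, 5.46 and 8.87 CPM in KO, so the AJ-F1 groups overlapped. Against CAST-F1, Nppa had the largest difference among genes with at least 5 CPM, at 0.73 ± 0.50 in AJ-F1 and 5.37 ± 0.65 in CAST-F1 (difference -4.64 ± 0.79, edgeR adjusted p = 0.036). In CAST-F1, Nppa was at 47.7, 54.6 and 35.5 CPM in WT and 1753, 1945 and 1992 CPM in KO, while the other 7 atrial markers summed to 47.5, 43.2 and 30.0 CPM in WT and 170.0, 43.9 and 56.3 CPM in KO. In AJ-F1 the libraries with high Nppa were those with high atrial markers, as given above. The neutral amino acid transporter Slc1a4 rose in both but by less in AJ-F1, 2.13 ± 0.30 against 5.13 ± 0.44. Kcne1, an accessory potassium channel subunit, changed by -0.84 ± 0.27 in AJ-F1 and 1.44 ± 0.30 in CAST-F1. The AJ-F1 call of Kcne1 was lost without WT 4 (-0.75, adjusted p = 0.062), KO 1 or KO 2. The motor protein gene Kif5a changed by 3.56 ± 0.24 and 5.73 ± 0.29. The light chain gene Myl9 was at 0.56 ± 0.26 (called without KO 2, at 0.77) and 2.58 ± 0.29, and the channel gene Best3 at 0.39 ± 0.22 and -1.65 ± 0.32. Acta2 was also among the 11, at 1.53 ± 0.24 and 3.55 ± 0.29.

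Among the lists, 17 of 20 cytosolic tRNA synthetases and 10 of 20 stress regulators rose in each of the 3 strains. Cytosolic ribosomal proteins rose in 37 of 59 in AJ-F1, 55 in BL6J and 39 in CAST-F1. Of collagen and matrix genes, 19 of 35 fell in AJ-F1, none in BL6J and 1 in CAST-F1. Fibroblast markers, which include some of these collagens, fell in 11, 2 and 0 of 12. These counts compare thresholds and not effects. The median log2 fold change of the collagen and matrix list was -0.69 in AJ-F1, 0.04 in BL6J and -0.07 in CAST-F1. That of the fibroblast list was -0.94, -0.05 and -0.165 in the same order. Differences between these medians were not tested. For Col1a1, the difference of AJ-F1 from BL6J was -1.15 ± 0.46 (adjusted p = 0.39) and from CAST-F1 -0.96 ± 0.49 (adjusted p = 0.54), and no collagen, matrix or fibroblast gene had a called difference.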

How the data were processed

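RNA from heart ventricles was sequenced as stranded, polyA-selected libraries, per the labels' protocols. The deposited table holds read counts per gene for 21 libraries, made by the authors with HISAT and featureCounts on GRCm38.p6, per the submitters' processing notes, with versions and use of strand in counting not given in the sources used here. Overlapping and antisense genes can therefore not be told apart, and genes with near-identical copies (ribosomal proteins, Eef1a1, Npm1, Gsta1) have uncertain counts. The authors' deposited table also gives log2 fold changes and adjusted p-values, and a score that marks the direction of each call, with DESeq2 named in the processing notes.

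From the counts, edgeR 4.0.16 (R 4.3.3, limma 3.58.1) fitted a quasi-likelihood model over all 21 libraries by strain and genotype, with TMM factors and filterByExpr (12333 of 14732 genes kept). Genes were called at a Benjamini-Hochberg adjusted p under 0.05. DESeq2 1.42.0 was an alternative. The depth was 5188327 to 10738130 counts per AJ-F1 library. CPM are TMM-scaled. Genes without control reads are bounded with 3 counts over the group, and 95% intervals cover counting error only. The model was tested on simulated data. Same-numbered libraries did not deviate together, so numbers were not used as pairs.

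Named genes were Taz, the 10 largest rises and falls with at least 5 CPM and no overlap between groups, the 8 largest gains and losses of CPM, up to 5 called members per list with any called against its majority, up to 6 differences per strain and a set of known regulators such as Atf4, Ppargc1a and Nppa. Genes outside this rule were named after their values were seen. The members and lists were chosen with earlier results of these data known.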

Additional observations from a re-analysis of the deposited data

Results flagged for a closer look

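Among 309 named genes, 14 had 1 control library far from the other 3 by Dixon's criterion (gap to the nearest library over the range), and chance alone gives about 1 in 20 groups. WT 3 was high for Slc6a9 (5.90 CPM against 2.85 to 3.31), Ldha (1304 against 826.5 to 860.8), Gstm1 (803 against 455.4 to 500.9), Timp2 (216 against 131.3 to 134.5), Pemt (6.56 against 2.04 to 2.51) and Hyal1 (14.1 against 8.02 to 8.66). WT 2 was high for Eif4a1 (141.2 CPM against 121.0 to 123.5), Ifi44 (5.77 against 2.71 to 2.99) and Nppa (333 against 83.1 to 110.3). It was low for Ndufa13 (600.4 against 673.1 to 685.0), Cox7a1 (1165 against 1394 to 1404) and Usmg5 (593 against 856.0 to 902.6). WT 1 was high for Nmrk2 (8.57 CPM against 5.49 to 5.81) and low for Kcne1 (18.4 against 30.8 to 33.3).

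The effect of the knockout differed between strains, by the edgeR test of the difference, for the 7 genes named for the size of that difference. It also differed for Acta2, given above and named by its lists. For Hyal1 the AJ-F1 effect minus the BL6J effect was -2.29 on the log2 scale. The AJ-F1 effect minus the CAST-F1 effect was -4.64 for Nppa, -2.99 for Slc1a4, -2.28 for Kcne1, -2.18 for Kif5a, 2.04 for Best3 and -2.01 for Myl9. WT 2 for Nppa, WT 3 for Hyal1 and WT 1 for Kcne1 are among the control values above, and their part in these differences was not tested.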

How the results depend on the processing

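The 1588 higher and 1933 lower calls became 1037 and 1341 with a fold change of at least 1.2, and 579 and 744 with AJ-F1 fitted alone. Leaving out 1 library gave 976 (without KO 3) to 2179 higher and 1159 to 2401 lower (both without WT 2). With the replicate block 1059 genes were higher and 1113 lower. With AJ-F1 fitted alone and the replicate block, 172 were higher and 99 lower. Same-numbered libraries, however, did not deviate together (r = 0.07, -0.23 and -0.09) and WT 4 has no partner, so the numbers show no pairing. The 1 difference from BL6J became 5 with upper-quartile factors or no filter, 72 with the DESeq2 Wald test, 7 with limma-voom, 0 with a fold change of at least 1.2, 2 with the replicate block and 0 to 57 when a library was left out. The 11 differences from CAST-F1 became 5 with no filter, 7 with at least 1 CPM in 3 samples, 84 with the DESeq2 Wald test, 140 with limma-voom, 0 with a fold change of at least 1.2, 1 with the replicate block and 0 to 14 when a library was left out. The cause was not tested. No called named gene changed sign in the alternatives run. Of 326 named genes, 322 kept their side of the threshold with DESeq2 size factors, 326 with the DESeq2 Wald test, 294 with limma-voom, 269 with the replicate block and 274 without KO 3. With AJ-F1 fitted alone 217 of 325 did, and 94 with the replicate block as well. Over the 7 AJ-F1 leave-outs, 820 of the higher and 994 of the lower calls held every time. Depth limits genes with few control reads.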

Other observations

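Some heme synthesis genes fell. Of 23 iron and heme genes 6 fell (4 to 6 across leave-outs) and 2 rose (1 to 4, the most without WT 2). The rises were Hmox1, which degrades heme, and Cpox, a heme synthesis enzyme, at 0.43 ± 0.16 (edgeR adjusted p = 0.047). The call of Cpox was lost without WT 3 (0.30, adjusted p = 0.12), WT 1 or any 1 KO library. Alad, the porphobilinogen-forming enzyme of heme synthesis, was at 181.6, 135.4, 266.1 and 202.4 CPM in WT and 137.7, 113.7 and 101.9 CPM in KO, with KO 1 just above WT 2 (-0.74 ± 0.17, edgeR adjusted p = 0.0026). Ferrochelatase (Fech), which inserts the iron, fell by 0.45 ± 0.13 and the mitochondrial transporter Abcb10 by 0.71 ± 0.13. The KO and WT libraries of Fech did not overlap.

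Of 25 glycerolipid genes, 4 rose (3 to 5) and 6 fell (4 to 7). Acaca, which makes malonyl-CoA, was at 15.8, 15.2, 12.6 and 14.5 CPM in WT and 30.3, 21.5 and 26.6 CPM in KO (0.85 ± 0.16, edgeR adjusted p = 0.00053), and the acyltransferase Gpat3 changed by 1.14 ± 0.23. Mitochondrial ribosomal proteins gave 2 rises (5 without WT 3) and 6 falls (15 without WT 2) in 56, with Mrpl28 falling by 0.86 ± 0.20 and Mrpl18 by 0.80 ± 0.15. Of 22 cardiac transcription factors 2 rose (1 without WT 3, WT 4 or any 1 KO library) and 3 fell (5 without WT 2, 0 without KO 3), and Meis2 changed by 0.73 ± 0.20.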
